A study of Mus musculus with 6 samples.

Results

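DNA methylation at the matrix protease genes was read from MeDIP-seq peak lists of primary mesangial cells from mice, the contractile cells that hold the capillary loops of the kidney glomerulus. MeDIP-seq sequences the genomic DNA fragments that an antibody to methylated cytosine pulls down. A peak is a stretch where such reads pile up above the local background. The genes are the 47 protein-coding genes on chromosomes 1 to 19 whose symbol is Mmp, Adamts or Adamtsl followed by a number, of 21418 protein-coding genes on these chromosomes (GENCODE vM1, mm9). A peak was assigned to a gene when its summit lay in the gene or within 2 kb of it, and overlapping peaks of different samples were joined into 279 regions, of 170444 regions in the series.

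All cells were grown in medium with 25.5 mM glucose and 20% foetal bovine serum and used between passages 3 and 6. The 3 samples of one group received 10 ng/ml TGF-β1, a growth factor that drives matrix build-up in the kidney, for 72 h, and the 3 samples of the other group served as control. The labels do not say that the samples of a group came from separate cultures, so p-values measure only the spread between these samples, which may be technical. Peak lists hold no expression values, so the labelled cell type was not checked against its marker genes. Control samples held 9407103 to 11494356 reads and TGF-β1-treated samples 12634300 to 13291419, so in any count of peaks the effect of depth cannot be told apart from that of treatment. Control replicate 1 had the fewest peaks (81473, against 90337 to 105520 in the others) and the lowest median GC content over its peaks (48.8%, against 49.3 to 49.8%).

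Matrix metalloproteinases (MMPs) are zinc-dependent enzymes that are secreted or held at the cell surface as inactive proforms and that together cleave nearly every protein of the extracellular matrix. The ADAMTS enzymes are secreted relatives that carry thrombospondin type 1 repeats, among which some cleave proteoglycans and others trim the ends of fibrillar procollagens. The ADAMTS-like proteins (Adamtsl) share the repeats but lack the protease domain. The HExxHxxGxxH zinc-binding motif, or the form with asparagine in place of the glycine, was searched in the longest coding transcript of each gene. Of the genes for MMP and ADAMTS enzymes it was found in all but Adamts8, and of the 5 Adamtsl genes it was found in 0. Other forms of the motif were not searched, so the miss at Adamts8 does not show that this enzyme lacks the site.

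Of the 47 genes, 40 (85.1%) had at least 1 peak in at least 1 sample, against 75.8% of all protein-coding genes. The number of peaks per gene ranged from 0 to 23 in a sample. Adamts18 held 29 regions in 152 kb, the most of any member, and Adamts20, a proteoglycan-cleaving enzyme of the Adamts9 subfamily, held 20 in 195 kb. Adamts12 had 19 regions, Adamts9 17, and Adamts2 and Adamts17 16 each. Longer genes had more regions (across the 47 genes, Spearman rho between the searched length and the number of regions was 0.814, against 0.779 across all genes; genes are not independent replicates). Per searched length, meaning the gene and 2 kb either side, Mmp11 stood highest. It had 7 regions in its 14.7 kb and these flanks, which is 37.4 per 100 kb searched. The median over members was 9.32 and over all genes 10.2. Of the 279 regions, 63 (22.6%) were called in all 6 samples and 77 (27.6%) in only 1, close to the 24.5% and 27.3% of the series.

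**Figure D1:**
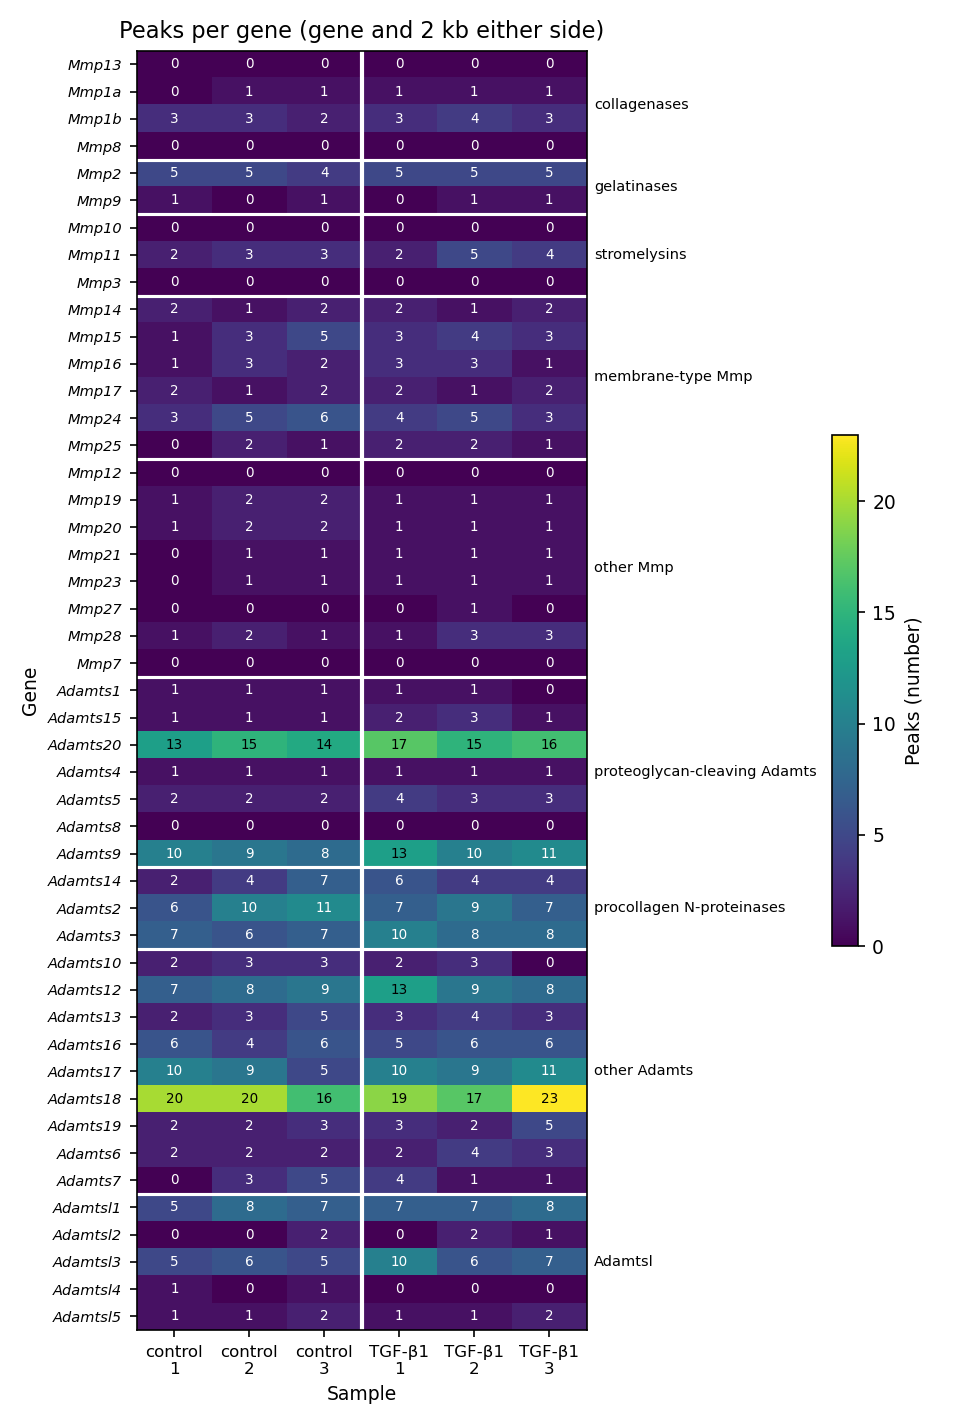
Number of peaks in each of the 47 genes (rows, grouped by class) in each sample (columns), counted in the gene and 2 kb either side. Adamts18 and Adamts20 hold 13 to 23 peaks in every sample, and 7 genes hold 0 in all 6.

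The 7 genes without a peak in any sample were Mmp3, Mmp7, Mmp8, Mmp10, Mmp12, Mmp13 and Adamts8. All but Adamts8 lie in a cluster of 10 MMP genes on chromosome 9 (chr9:7270514-7701585, 2 kb flanks included), which holds the collagenases Mmp1a, Mmp1b, Mmp8 and Mmp13, the stromelysins Mmp3 and Mmp10, and Mmp7, Mmp12, Mmp20 and Mmp27. Its 431 kb held 28 regions, of which 8 lay in the window of a cluster gene, namely 4 in Mmp1b, 2 in Mmp20 and 1 each in Mmp1a and Mmp27. Over the whole span 13, 17 and 15 peaks were called in control and 18, 20 and 18 after TGF-β1. The span has 7.09 CpG per kb and a GC content of 40.8%, and its 10 genes have a median of 6.15 CpG per kb, against 13.1 for the other 37 members. None of the 10 promoters was CpG-rich, meaning that in the 1 kb centred on the gene's 5′ end GC content was at least 50% and the ratio of observed to expected CpG at least 0.6. That ratio ran from 0.0232 to 0.22 in the cluster, whereas 18 of the other 37 members were CpG-rich. The 201 bases before the 5′ ends of Mmp13 (chr9:7272313-7272513) and Mmp8 (chr9:7558228-7558428), both on the plus strand and without a peak, show how few CpG sites these promoters hold (CpG in capitals, 1 and 3 sites).
Mmp13 upstream: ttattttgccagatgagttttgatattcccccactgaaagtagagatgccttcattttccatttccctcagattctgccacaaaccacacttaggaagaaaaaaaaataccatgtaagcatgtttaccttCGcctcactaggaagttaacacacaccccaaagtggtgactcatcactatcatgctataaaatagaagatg
Mmp8 upstream: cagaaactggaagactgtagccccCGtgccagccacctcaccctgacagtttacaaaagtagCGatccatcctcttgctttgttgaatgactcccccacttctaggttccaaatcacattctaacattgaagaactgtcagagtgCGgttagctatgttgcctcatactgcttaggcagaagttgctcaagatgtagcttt
Adamts8, a proteoglycan-cleaving enzyme, lies elsewhere on chromosome 9 and has a CpG-rich promoter with a ratio of 0.834.

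A promoter was taken as 2 kb upstream to 500 bp downstream of the gene's 5′ end. Peaks in protease promoters numbered 4, 6 and 3 in control and 6, 5 and 4 after TGF-β1, and the groups overlapped (4.33 ± 1.53 against 5.0 ± 1.0, SD, n = 3; difference 0.667, exact two-sided permutation test, p = 0.8). They fell in 8 genes (17.0%, against 19.6% of all genes), namely Adamts5, Adamts12, Adamts18, Adamts20, Mmp11, Mmp23, Mmp24 and Mmp25, where the Mmp23 peak belonged to a region whose own summit lay in the gene body. Of the 18 CpG-rich promoters 4 held a peak (22.2%), and of the 29 CpG-poor promoters 4 did (13.8%). Over all genes the shares were 18.5% and 20.5%.

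Promoter peaks called in at least 5 samples were found at Adamts20, Adamts18 and Adamts5 (6.38% of members, against 7.15% of all genes). The Adamts20 region was called in all 6 samples, 350 bp into the gene and outside its longest coding transcript, with highest pileups of 22, 14 and 11 reads in control and 23, 16 and 25 reads in TGF-β1-treated samples. These groups overlapped. At Adamts18 the summit lay at -1773 bp from the 5′ end, and pileups were 19 and 22 reads in control replicates 1 and 2, with no peak called in control replicate 3, and 19, 20 and 27 reads after TGF-β1. At Adamts5, an aggrecan-cleaving enzyme, the summit lay at -1461 bp, and pileups were 17 and 12 reads in control replicates 1 and 2, with no peak in control replicate 3, and 16, 13 and 17 reads after TGF-β1. The same control sample lacked the peak at both genes, and where peaks were called the values of the groups overlapped. The mm9 sequences around the 3 summits are shown on the strand of each gene (minus for all 3), with CpG in capitals, because they are the only member promoters with a peak in at least 5 samples. They lie at chr15:94295399-94295599, chr8:116374314-116374514 and chr16:85902731-85902931.
Adamts20 promoter: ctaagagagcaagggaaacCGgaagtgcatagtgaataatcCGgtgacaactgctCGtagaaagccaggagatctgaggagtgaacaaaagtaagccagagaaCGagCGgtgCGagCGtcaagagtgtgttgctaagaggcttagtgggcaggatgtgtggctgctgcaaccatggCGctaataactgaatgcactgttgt
Adamts18 promoter: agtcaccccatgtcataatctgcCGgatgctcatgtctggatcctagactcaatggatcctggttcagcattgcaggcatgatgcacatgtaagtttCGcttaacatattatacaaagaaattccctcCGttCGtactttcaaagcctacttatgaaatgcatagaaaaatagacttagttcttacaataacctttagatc
Adamts5 promoter: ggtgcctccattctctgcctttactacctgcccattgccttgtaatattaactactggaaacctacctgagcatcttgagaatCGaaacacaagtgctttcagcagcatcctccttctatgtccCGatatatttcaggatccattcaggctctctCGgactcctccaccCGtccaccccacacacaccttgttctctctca
The Adamts20 stretch has 8 CpG sites and the others 4 each.

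**Figure D2:**
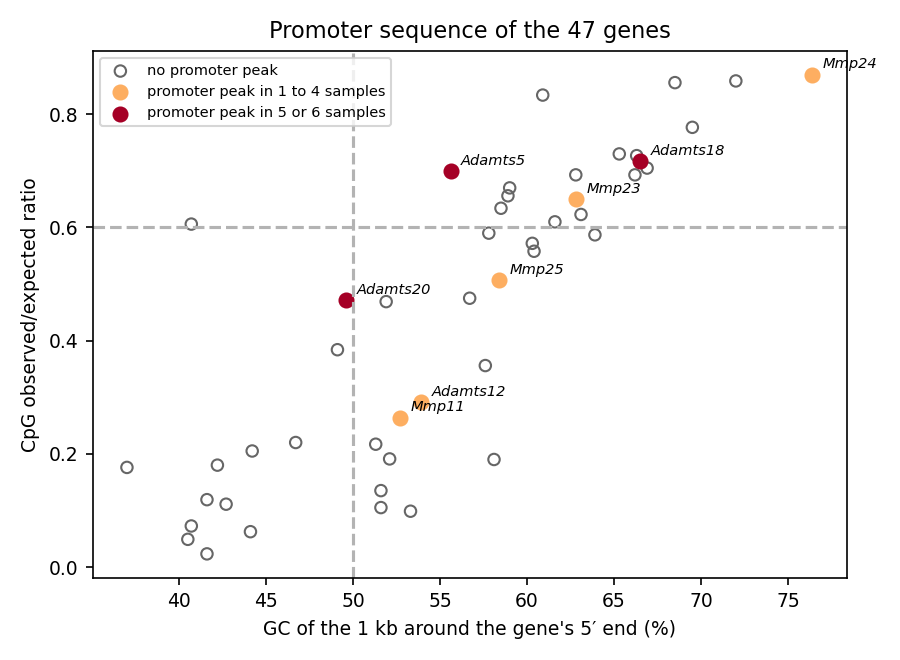
Ratio of observed to expected CpG (vertical axis) against GC content (horizontal axis, percent) in the 1 kb around the 5′ end of each of the 47 genes. Filled points are genes with a promoter peak, and dashed lines mark the limits of a CpG-rich promoter. Genes with promoter peaks lie on both sides of the limits.

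Most protease regions lay in gene bodies, which also made up most of the sequence searched. The counts by part are not set against the length of each part and show no preference for bodies. Of the 279 regions, 267 had their summit in the body, 8 in a promoter and 4 within 2 kb downstream. By the longest coding transcript, 189 lay in an intron and 63 in a coding exon. Counted over every coding exon of the 47 genes, exons made up 3.44% of the gene sequence and held 64 of the summits in genes (23.9%), which is 50.3 regions per 100 kb against 5.71 in the rest of the gene sequence. All protein-coding genes had 38.9 and 8.38 regions per 100 kb, and a share of 14.8% in coding exons. Of the protease regions in coding exons 15.6% were called in all 6 samples and of those in the rest of the gene sequence 25.0%, a difference that was not tested, and over all protein-coding genes these shares were 24.7% and 23.2%. The coding-exon regions' median GC content was 54.7% with 8 CpG in the 201 bases around the summit, against 48.8% and 5 in introns. Peaks in coding exons numbered 20, 29 and 39 in control and 32, 43 and 26 in TGF-β1-treated samples, and the groups overlapped widely. Regions that missed 1 sample most often missed control replicate 1, which lacked 19 of 37 such regions (51.4%, median GC content 54.7%), against 41.5% in the series.

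The regions with the highest mean pileup among those called in every sample were in introns of Adamts6 and Adamts13 and in an exon of Adamts18. An intron 24 region of Adamts6 (chr13:105275413-105275861) reached 68, 62 and 70 reads in control and 80, 74 and 68 reads in TGF-β1-treated samples. Intron 23 of Adamts13, the enzyme that cleaves von Willebrand factor, carried a region (chr2:26853802-26854436) with 62, 59 and 63 reads in control and 63, 73 and 94 reads after TGF-β1. Coding exon 3 of Adamts18 (chr8:116368737-116369223) had 47, 48 and 56 reads in control and 46, 54 and 54 reads after TGF-β1. The groups overlapped or shared a value in all 3 regions, and their heights stand against a median pileup of 18 to 23 reads over the peaks at protease genes in a sample. The CpG content of the first pair differed, as the sequences around their summits show on the plus strand (chr13:105275524-105275724, with 0 CpG in 201 bases, and chr2:26854101-26854259, with 14 in 159 bases, where an annotated untranslated exon bounds the stretch).
Adamts6 intron 24: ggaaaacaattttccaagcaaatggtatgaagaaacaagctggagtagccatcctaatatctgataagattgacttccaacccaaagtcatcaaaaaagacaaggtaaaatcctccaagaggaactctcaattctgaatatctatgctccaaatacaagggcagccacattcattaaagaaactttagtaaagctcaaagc
Adamts13 intron 23: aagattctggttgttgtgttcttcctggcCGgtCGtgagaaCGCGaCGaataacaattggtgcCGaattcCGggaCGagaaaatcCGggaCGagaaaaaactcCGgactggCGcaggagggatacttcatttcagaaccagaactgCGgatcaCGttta
The 49-base sequence, 1 read length, centred on the Adamts13 summit occurs 29 times in mm9 on either strand, and that of Adamts6 once. Only exact copies were counted, so a sequence that occurs once may still have near copies elsewhere, as part of a diverged repeat would. Of the 279 regions, 259 (92.8%) had a summit sequence that occurs once and 9 one that occurs over 100 times, among them regions called in all 6 samples in Mmp16, Adamts3, Adamts13 and Adamts17. The authors kept uniquely mapped reads, and the part of repeated sequence in these pileups was not tested.

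The gelatinases differed in how many regions they held. Mmp2 (gelatinase A) had 5 regions, 4 of them called in all 6 samples, and Mmp9 (gelatinase B) had 2, each called in 2 samples. In Mmp2, coding exon 3 had pileups of 30, 26 and 30 reads in control and 26, 28 and 29 reads after TGF-β1, and intron 5 had 33, 33 and 35 reads against 40, 42 and 47 reads. The intron 5 groups did not overlap before centering on each sample's median, which was 0.22 higher on the log2 scale in TGF-β1-treated samples. After centering, that region was not called (limma adjusted p = 0.999). Over the exon that encodes the zinc-binding motif, 7 genes had a region, namely Adamts7, Adamts10, Adamts20, Mmp9, Mmp11, Mmp14 and Mmp17, and 0 of these regions were called in all 6 samples.

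The first comparison asked whether TGF-β1-treated cells had more or fewer peaks at these genes. Protease genes held 129, 153 and 159 peaks in control and 172, 165 and 162 after TGF-β1. Every treated sample was above every control sample (147.0 ± 15.9 against 166.0 ± 5.13, SD, n = 3), a difference of 19.3 peaks (p = 0.1 by the exact two-sided permutation test, the lowest value that 3 against 3 can give). Without control replicate 1, which had the fewest peaks, the difference was 10.3. The samples with more reads were the treated ones, and per 1000000 reads the direction turned, with 12.5, 16.3 and 13.8 peaks in control and 13.5, 13.1 and 12.2 after TGF-β1 (difference -1.29, exact permutation p = 0.4). Among all peaks called in a sample, those at protease genes made up 0.158, 0.169 and 0.158% in control and 0.169, 0.164 and 0.154% in TGF-β1-treated samples (0.162 ± 0.00638% against 0.162 ± 0.00805%, exact permutation p = 1.0). The share did not differ beyond the spread between samples. Peaks in gene bodies alone numbered 123, 143 and 152 in control and 163, 157 and 155 after TGF-β1 (difference 19.0, exact permutation p = 0.1), and without control replicate 1 the difference was 10.8. Benjamini-Hochberg adjustment over the 4 tests of peaks, share, promoters and bodies gave p-values of 0.2, 1.0, 1.0 and 0.2 in that order.

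**Figure D3:**
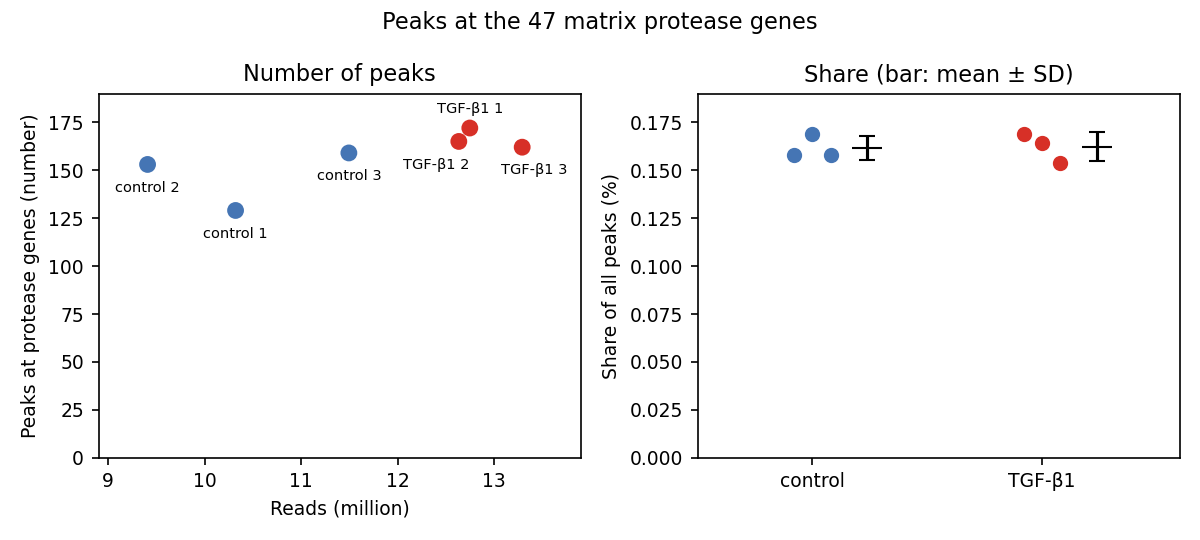
Left, peaks at the 47 protease genes against the reads of each sample (in units of 1000000). Right, those peaks as a share (percent) of all peaks of the sample, with the mean and SD of each group beside the points. Counts of TGF-β1-treated samples (red) lie above control (blue) and at greater depth, and the shares overlap.

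At the level of single genes, 2 members had more peaks in every treated than in every control sample (4.26%, against 2.98% of all genes) and 0 had fewer (against 0.261% of all genes). Adamts3, an enzyme that trims the amino end of procollagens, had 7, 6 and 7 peaks in control and 10, 8 and 8 after TGF-β1, and Adamts5 had 2, 2 and 2 against 4, 3 and 3. Both gene counts were without overlap between the groups. Divided by reads, 1 member was higher in every treated sample (Adamts5, against 1.34% of all genes) and 4 were lower (Adamts1, Adamts4, Mmp19 and Mmp20, 8.51%, against 12.0%). Since every treated sample had more reads than every control sample, this division lowers any gene with equal counts in all samples. Adamts4, with 1 peak in each of the 6, is such a gene, so its lower value is no evidence of fewer peaks. Before division Mmp19 and Mmp20 each had 1, 2 and 2 peaks in control and 1, 1 and 1 after TGF-β1. Adamts1 had 1, 1 and 1 against 1, 1 and 0, and in all of these the groups overlapped. In these 4 genes the effect of depth cannot be told apart from that of treatment. With a fold enrichment of at least 5, Mmp1b alone was higher in every treated sample. The share over all genes at that limit was not counted. Without the limit Mmp1b had 3, 3 and 2 peaks against 3, 4 and 3, which overlapped. Leaving out 1 sample cannot break a pattern that holds in all 6, so its persistence at Adamts3 and Adamts5 adds no support. The number of members with it was 3 without control replicate 1, 4 without control replicate 2, and 5 without TGF-β1 replicate 1 or 2. Without TGF-β1 replicate 3 it was 3. With fewer samples the share over all genes was also above 2.98%, between 4.35 and 7.98%, beside 4.26 to 10.6% of members. The opposite pattern appeared in 3 members without control replicate 1 (Mmp19, Mmp20 and Adamts2) and in 1 without control replicate 2 (Adamtsl4), which is 6.38% and 2.13% of members, against 1.72% and 0.92% of all genes. Among classes, the proteoglycan-cleaving Adamts genes had 28, 29 and 27 peaks in control and 38, 33 and 32 after TGF-β1, and the procollagen N-proteinases Adamts2, Adamts3 and Adamts14 had 15, 20 and 25 against 23, 21 and 19, where the groups overlapped. The remaining Adamts genes had 51, 54 and 54 peaks against 61, 55 and 60, and the Adamtsl genes 12, 15 and 17 against 18, 16 and 18. The groups did not overlap for the proteoglycan-cleaving and the remaining Adamts genes, and the deeper samples were again the treated ones. The membrane-type MMPs had 9, 15 and 18 peaks against 16, 16 and 12, and these overlapped, as did the Adamtsl counts.

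Regions with a call in every treated sample and no control sample numbered 6 (2.15% of the 279 regions, against 0.948% of all regions) and the reverse pattern was found once (1 region, 0.358%, against 0.233%). Leaving out 1 sample gave 7 to 9 regions of the first kind, and of the second kind 4 without control replicate 1 or 2, 3 without control replicate 3 and 2 without TGF-β1 replicate 3. Over all regions these patterns then made up 1.84 to 2.67% and 0.502 to 1.14%, beside 2.61 to 3.44% and 0.372 to 1.49% of the protease regions. A region without a call may still hold reads below the caller's threshold, where the lowest pileup called was 8 reads in control and 9 or 10 in treated samples. The TGF-β1 regions were in Adamts5, Adamts9, Adamts12, Adamts14, Adamts17 and Adamtsl1. In coding exon 5 of Adamts5 (chr16:85868660-85869027) the treated samples reached 16, 21 and 18 reads, and this region adds 1 to each treated count of the gene. Intron 28 of Adamts9 (chr6:92796067-92796428, also within 2 kb of A730049H05Rik) had 14, 19 and 21 reads. Pileups in intron 2 of Adamts12 (chr15:11046901-11047262) were 15, 17 and 19 reads, and in Adamts14 (chr10:60660954-60661262) 19, 21 and 19 reads. In intron 3 of Adamts17 (chr7:74012056-74012443) all 3 treated samples had 15 reads, and in intron 3 of Adamtsl1 (chr4:85757339-85757683) they had 15, 15 and 17. The control region was in intron 5 of Adamts2 (chr11:50571582-50571928), the main procollagen I N-proteinase, with 20, 21 and 25 reads. The values that chose these regions are given as a description, and the highest was 25 reads. The mm9 sequences of the summit stretches of Adamts5 (chr16:85868759-85868959, minus strand) and Adamts2 (chr11:50571659-50571859, plus strand) are shown as the coding-exon example in the treated and the one example in the control direction.
Adamts5 exon 5: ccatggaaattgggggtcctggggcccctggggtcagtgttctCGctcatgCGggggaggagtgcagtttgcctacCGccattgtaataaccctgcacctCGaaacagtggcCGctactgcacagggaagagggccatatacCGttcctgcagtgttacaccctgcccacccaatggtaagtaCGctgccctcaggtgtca
Adamts2 intron 5: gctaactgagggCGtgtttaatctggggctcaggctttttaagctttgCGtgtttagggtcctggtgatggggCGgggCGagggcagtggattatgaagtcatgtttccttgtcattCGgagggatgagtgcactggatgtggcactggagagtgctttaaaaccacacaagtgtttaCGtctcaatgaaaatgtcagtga
They hold 7 and 6 CpG sites in 201 bases.

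**Figure D4:**
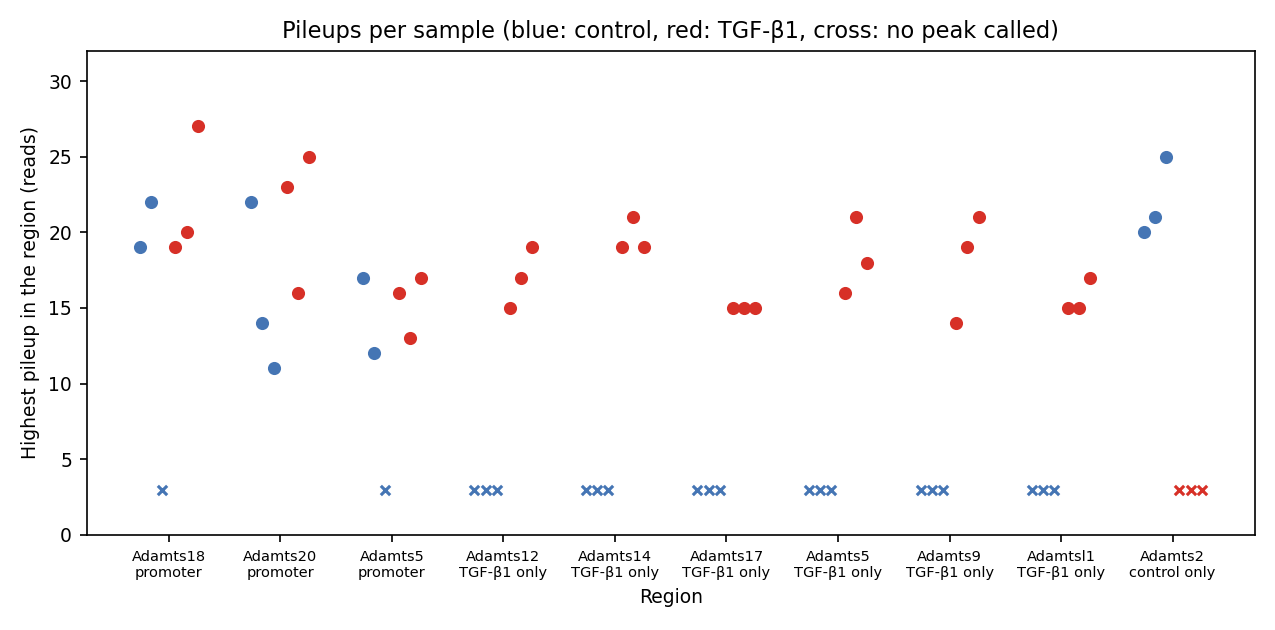
Highest pileup (reads, vertical axis) per sample in the 3 promoter regions called in at least 5 samples and in the 7 regions called in one group only (horizontal axis). Crosses at the foot mark samples without a call, not a pileup of a given height. Called values lie between 11 and 27 reads.

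Pileups were then compared in the regions called in all 6 samples, with limma across all 41744 such regions. Of the 63 protease regions, 0 passed an adjusted p of 0.05 (background 0.0% of 41744, Benjamini-Hochberg), and the smallest adjusted p among them was 0.999. At an unadjusted p below 0.05 there were 2 (3.17%, against 4.18% of all regions), both lower after TGF-β1. Fold changes on the log2 scale ran from -0.76 to 0.41, with 33 regions above and 30 below 0 and a median of 0.0263 (-0.0047 over all regions). Divided by reads, 23 were above and 40 below 0. The 3 smallest p-values among the lower regions were those of Adamts16 (coding exon 4, chr13:70939520-70939938), Adamts18 (intron 3) and Mmp1b (intron 6). Adamts16 pileups were 24, 21 and 31 reads in control and 16, 14 and 23 after TGF-β1 (log2 fold change -0.76 ± 0.22 SE, limma adjusted p = 0.999, unadjusted p = 0.00161). One treated sample lay within the control range. Adamts18 had 33, 24 and 36 reads against 27, 26 and 26 (log2 fold change -0.44 ± 0.20 SE, limma adjusted p = 0.999), and Mmp1b had 39, 32 and 38 reads against 37, 26 and 43 (log2 fold change -0.29 ± 0.19 SE, limma adjusted p = 0.999). On the higher side, Adamtsl3 (intron 19, chr7:89705054-89706374) had 18, 15 and 15 reads against 25, 24 and 25 (log2 fold change 0.41 ± 0.21 SE, limma adjusted p = 0.999). Adamts17 (intron 7) had 17, 18 and 21 reads against 22, 32 and 31 (log2 fold change 0.37 ± 0.22 SE, limma adjusted p = 0.999), and Adamts3 (coding exon 7) had 32, 23 and 31 against 36, 40 and 48 (log2 fold change 0.31 ± 0.19 SE, limma adjusted p = 0.999). The raw pileups of these 3 did not overlap between groups, but 0 of the 63 regions passed. These 3 were chosen by their p-values, so the lack of overlap adds no support. Raw pileups also carry the depth of each sample, and the sample median was 0.22 higher on the log2 scale in TGF-β1-treated samples. How many of all regions had raw pileups without overlap was not counted.

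**Figure D5:**
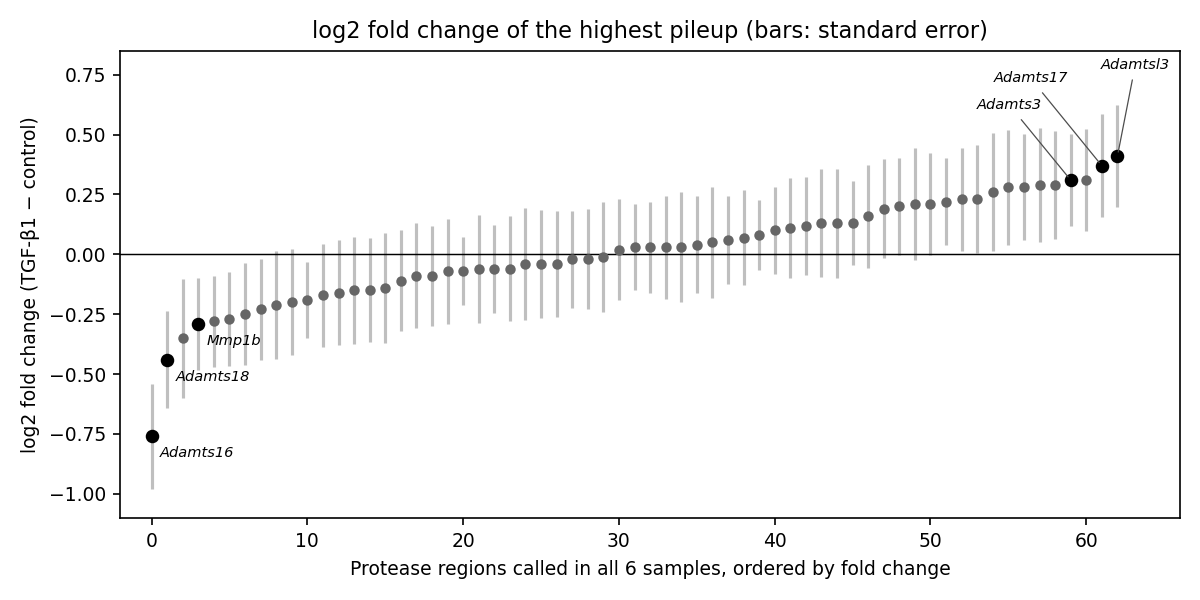
log2 fold change (TGF-β1 minus control, after centering each sample on its median) with its standard error in the 63 protease regions called in all 6 samples, ordered by size. Black points are the 3 regions with the smallest p in each direction. Values run from -0.76 (Adamts16) to 0.41 (Adamtsl3).

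For the other genes of the pathway, 23 were examined: 8 inhibitors (Timp2, Timp3, Timp4, Reck, A2m, Papln, Thbs1 and Thbs2, of which the Timp proteins block MMPs directly), 7 activators (among them Plg, Plau and Furin) and 8 substrates (among them the aggrecan gene Acan and Vcan). All 23 had a peak, 0 had counts that did not overlap between the groups (against 2.98% of all genes higher and 0.261% lower), and they held 164 regions, 3 of them (1.83%, against 0.948% of all regions) called in all treated and no control samples. Inhibitor genes had 18, 21 and 26 peaks in control and 29, 25 and 24 after TGF-β1, activators 16, 23 and 23 against 29, 27 and 29, and substrates 32, 36 and 43 against 46, 41 and 35. The activator counts were without overlap, but the deeper samples were again the treated ones. In these counts the effect of depth cannot be told apart from that of treatment. Of the 31 regions called in all 6 samples, 1 had an unadjusted p below 0.05 (3.23%, against 4.18% of all regions), lower after TGF-β1, and 0 passed the adjusted threshold. The 8 inhibitors went in different directions, and in each the groups overlapped. Reck, a membrane-bound inhibitor of MMPs, had 4, 5 and 7 peaks in control against 8, 7 and 7 after TGF-β1. Timp2 had 6, 7 and 9 against 8, 6 and 6, and Timp3 2, 4 and 2 against 3, 4 and 5. Timp4 had 0, 0 and 0 against 1, 0 and 0, and A2m 2, 2 and 2 against 2, 3 and 2. Papln had 1, 0 and 3 against 4, 2 and 1. Thbs1 had 1, 0 and 1 against 0, 0 and 0, and Thbs2 2, 3 and 2 against 3, 3 and 3.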

How the data were processed

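MeDIP-seq peak lists of 3 control and 3 TGF-β1-treated samples were used, grouped by the sample labels. The authors mapped reads to mm9 with BWA, removed duplicates and called peaks in each sample separately with MACS2 2.1.0.20150731, without an input sample, at a q-value of 0.01. The deposited pileup is a coverage signal, counted in reads extended to fragment length at the summit, and carries no depth normalization. The deposited fold enrichment is a ratio, pileup over the local expectation. Deposited p-values and q-values are given as −log10. A peak list leaves out stretches below the threshold.

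Peaks were joined into regions by an overlap of 1 bp and assigned to genes of GENCODE vM1 on NCBIM37 (mm9) by their summits, with Python 3.11.15. Sequences were read with pysam 0.24.0. Per-sample values were tested by exact two-sided permutation over 20 assignments (smallest p 0.1). Regions called in all 6 samples were tested with limma 3.58.1 in R 4.3.3 on log2 of the highest pileup, centered on each sample's median, with Benjamini-Hochberg adjustment over all 41744 regions, and the test was tested on simulated data. Depth was 9407103 to 13291419 reads per sample, which sets the precision of peak calls. Named genes are those with a promoter region called in at least 5 samples, regions called in one group only, non-overlapping peak counts, the 3 smallest limma p-values in each direction, the 3 highest pileups, the gelatinases, the largest gene cluster, regions over the zinc-motif exon, and genes without a peak. Adamts1, Adamts4, Adamtsl4, Mmp16, Mmp19, Mmp23, Mmp24 and Mmp25 were named after their values were seen. Genes and lists were chosen with earlier results of these data known. Alternatives were limits of 5 on −log10 q or on fold enrichment, other flanks and promoter limits, division by reads, other normalizations, other joining, the replicate block and leaving out each sample. The authors' own test on read counts was not repeated. One gene of the inhibitor list is not reported here.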

Additional observations from a re-analysis of the deposited data

How the results depend on the processing

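Per 1000000 reads, the difference (TGF-β1 minus control) in peaks at protease genes was -1.29, in promoter peaks -0.0397 and in body peaks -1.16, all opposite to the counts, and 1 gene was higher and 4 lower in every treated sample. The share of peaks at protease genes differed by -0.000668 percentage points at a −log10 q of at least 5. At that limit or at a fold enrichment of at least 5, regions in all control and no treated samples numbered 2, and at the latter 1 gene was higher in every treated sample. The shares over all regions and all genes at these limits were not counted, so these counts have no background beside them. Leaving out 1 sample in turn, the difference ran from 10.3 to 25.3 peaks (10.3 without control replicate 1), from -0.00305 to 0.00481 percentage points of share, from 0.0 to 1.5 promoter peaks and from 10.8 to 25.3 body peaks. Regions in all treated and no control samples then numbered 7 to 9, the reverse 1 to 4 (1 without TGF-β1 replicate 1 or 2, 4 without control replicate 1 or 2), and genes with more peaks 2 to 5 and with fewer 0 to 3, an alternative chosen after seeing the data. By limma, 0 protease regions passed under every setting run. For regions with a peak in at least 3 samples, a missing value was set to the lowest pileup called in that sample. By limma 13 of 161 such protease regions then had an unadjusted p below 0.05 (8.07%, against 4.05% of all). They include the regions called in one group only, whose p-values follow from how they were chosen, so this share is no independent support. Among regions called in every sample left without control replicate 1, it was 8 of 82 (9.76%, against 6.15%). In the regions called in all 6 samples, same-numbered samples did not deviate together (correlations of -0.0464, 0.0432 and -0.13). This cannot settle whether the numbers pair the samples, which the labels do not say. With the replicate block the difference of 19.3 peaks had an exact sign-flip p of 0.25, the smallest that 3 pairs allow, and 0 protease regions were called by limma. Depth limits all counts of peaks, since each treated sample held more reads than each control sample.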
